A study of Oikopleura dioica with 14 samples.

Results

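Whole Oikopleura dioica animals lacking Pax37b were compared with wild-type animals 8 hours post fertilization (hpf), in all 5 libraries of that stage out of 14 in the series. The members were the 3 mutant and the 2 wild-type columns of the 8 hpf count table, with all 17212 gene identifiers. Mutant pools were Pax37b-/- and wild-type pools Pax37b+/+, both being offspring of Pax37b+/- parents, genotyped animal by animal and pooled by genotype before RNA extraction. Libraries were made from poly(A) RNA with a low-input kit. The wild-type columns were replicate 1 and a column whose number no wild-type title at this stage has, called the unnumbered wild-type library here. The titles call the samples biological replicates, but nothing in the labels says whether the pools of a group came from separate crosses, so p-values measure the spread between these libraries, which may be partly technical. Because whole animals were pooled, fewer cells of a type and less RNA per cell cannot be told apart.

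Pax3/7 proteins are transcription factors with a paired domain. In vertebrates they act at the border of the neural plate, in the dorsal neural tube and neural crest, and in muscle precursors. Oikopleura dioica is a planktonic tunicate whose trunk epithelium secretes a filter-feeding house, and the Fol territory named in the series title is a field of that epithelium known for secreting the food-concentrating filter. The tables give identifiers without names, and none of the 17212 matched the reference gene table used here. Pax37b itself, house protein genes and tissue markers were therefore not analysed here, no sequence could be paired with an identifier, and genes are described by level, by library and by their place in the identifier order.

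Each library at 8 hpf held a large set of genes with few counts and a small set with many. Total counts were 12848408, 10350791 and 10960344 in mutant replicates 1, 2 and 3. They were 15682947 in wild-type replicate 1 and 14936251 in the unnumbered wild-type library. Between 58.5% and 81.5% of identifiers had 1 to 29 counts, and only 3.81% to 7.47% lay at 30 to under 300 counts. Genes at 100 CPM or more (CPM being counts normalised by the library total), called abundant from here on, numbered 1189, 1471 and 547 in the mutant libraries and 2389 and 1797 in the wild-type libraries. These few genes took 90.7% to 97.7% of all counts in every library.

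**Figure D1:**
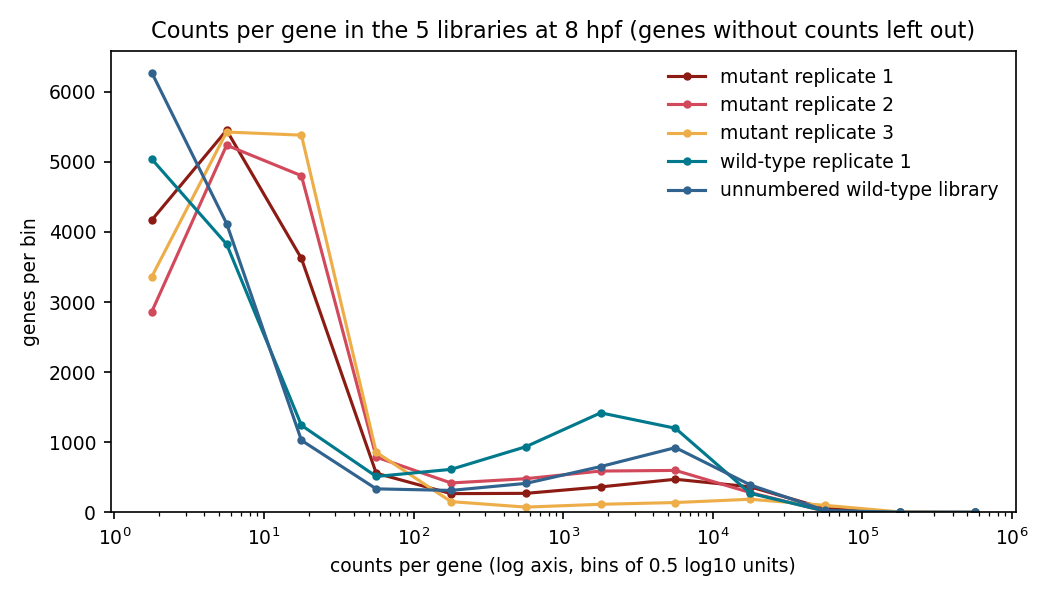
Number of genes (vertical axis) by counts per gene (horizontal log axis, bins of 0.5 log10 units) in each of the 5 libraries at 8 hpf. In every library most genes lie below 30 counts, and the smaller group on the right is highest in wild-type replicate 1, with 2389 genes at 100 CPM or more, and lowest in mutant replicate 3, with 547.

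The mutant libraries had fewer abundant genes than either wild-type library. Counted at 100 counts or more, genes averaged 1657 ± 813 in mutants (SD, n = 3) and 3598 ± 1228 in wild type (SD, n = 2). The difference of -1940 gave p = 0.10 in a two-sided exact permutation test over the libraries, the smallest value that 10 splits allow. With every library subsampled to 10350789 counts, the means became 1633 and 3446, with an exact permutation p of 0.200. The ranges did not overlap before or after subsampling, and mutant replicate 3, at 783 genes, stood lowest. At 30 counts or more they overlapped, with 2436, 3278 and 1774 genes in mutants and 5006 and 3087 in wild type (two-sided exact permutation p = 0.30). The 10 most abundant genes took 7.28%, 5.35% and 10.5% of counts in mutant replicates 1, 2 and 3, and 6.11% and 7.83% in wild-type replicate 1 and the unnumbered wild-type library. These shares overlapped between genotypes (two-sided exact permutation p = 0.900). The 100 most abundant genes took 53.4% in mutant replicate 3 and 20.1% to 30.7% in the other libraries.

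Which genes were abundant differed widely within a genotype too. Of 4767 genes abundant in at least 1 library, 3097 (65%) were abundant in 1 library only and 66 (1.38%) in all 5. The 2 wild-type libraries shared 782 abundant genes, which is 32.7% of those in wild-type replicate 1 and 43.5% of those in the unnumbered library. Mutant replicates 1 and 2 shared 362, or 30.4% and 24.6% of their lists. Mutant replicate 3 shared 173 with replicate 1 (31.6% of its own list and 14.6% of the other) and 177 with replicate 2 (32.4% and 12%). The 6 pairs of different genotype shared 218 to 575 genes, which is 29.6% to 49.9% of the mutant list and 11.4% to 24.3% of the wild-type list. Over all identifiers Spearman's rho of CPM was 0.63 to 0.66 for the 3 mutant pairs, 0.53 to 0.58 for the 6 pairs of different genotype and 0.51 for the wild-type pair. These correlations run across genes of shared libraries and are given as a description.

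Many genes abundant in one library were nearly absent (under 3 CPM) from another, also between replicates. In wild-type replicate 1, 1363 abundant genes were nearly absent from the unnumbered wild-type library, and 676 were so in the other direction. Between mutant libraries this number ran from 258 to 1093. The share of missing genes went with the library in which they were missing. Mutant replicate 3 lacked 72.2% to 74.3% of the genes abundant in another mutant library and 75.2% to 76.1% of those abundant in a wild-type library. Mutant replicate 1 lacked 55.4% to 64.2% and 64.7% to 66.5%, and mutant replicate 2 lacked 47.2% to 53.1% and 58.1% to 60.2%. Wild-type replicate 1 lacked 32.9% to 40.2% of the mutants' abundant genes and 37.6% of those of its wild-type partner. The unnumbered wild-type library lacked 47.7% to 58.9% and 57.1%. In each mutant library the share was higher for genes taken from wild type, and in each wild-type library the share for the wild-type partner lay inside the range for the mutants.

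**Figure D2:**
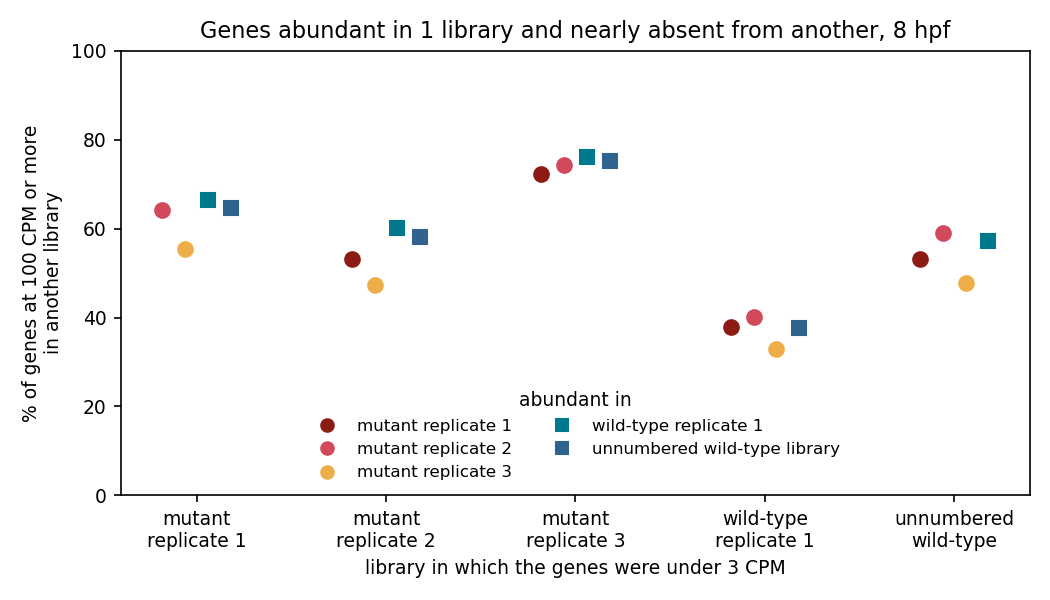
Share of genes at 100 CPM or more in one library (point colour; circles mutant, squares wild type) that were under 3 CPM in another library (horizontal axis), in percent. Points above mutant replicate 3 lie at 72.2% to 76.1% and those above wild-type replicate 1 at 32.9% to 40.2%, whichever genotype the genes came from.

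The comparison of all genes asked which genes depend on Pax37b at 8 hpf. No gene passed edgeR's quasi-likelihood test after Benjamini-Hochberg adjustment (0 of 8704 genes tested, 0%), and the smallest adjusted p was 0.125. At an unadjusted p under 0.05 there were 2611 genes (30%), of which 634 were higher and 1977 lower in mutants. The biological coefficient of variation was 1.45, so the spread between libraries of a genotype was wide. limma-voom also called 0 genes, with 1015 at an unadjusted p under 0.05. DESeq2 called 3806 of the 8218 genes to which it gave an adjusted p (410 higher, 3396 lower). Scaling changed both count and direction. RLE factors gave 26 calls, 20 of them higher, and upper-quartile factors gave 2521, 2500 of them higher. These factors moved the median log2 fold change of all tested genes by 0.29 and 4.48. Leaving out the unnumbered wild-type library gave 2466 calls (387 higher, 2079 lower). That fit takes the spread of its single wild-type library from the mutants. Without wild-type replicate 1 the count was 0, with 1947 genes at an unadjusted p under 0.05. Without mutant replicate 1, 2 or 3 it was 29, 7 or 13.

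Genes whose mutant and wild-type libraries did not overlap leaned up in number and down in size. Of the 8704 tested genes 2935 (33.7%) were above and 938 (10.8%) below wild type in all mutant libraries, by CPM. The higher ones were mostly genes with few counts. Among 1670 genes averaging under 1 CPM, 1246 (74.6%) lay higher and 5 lower. Genes this low passed the filter on low counts through the libraries in which they were highest. Their direction was thus partly set by the filter and is not read as a result. Without the filter 6133 of 16823 genes (36.5%) lay higher and 1058 (6.29%) lower. From 1 to 10 CPM 51.5% lay higher and 4.5% lower. Genes from 10 to 100 CPM gave 12.4% and 15.7%, and genes from 100 to 1000 CPM 13.1% and 19.2%. The few genes above 1000 CPM, 124 in all, gave 13.7% and 4.84%. Their direction changed with the scaling, at 9.68% and 13.7% with TMM, 9.68% and 6.45% with RLE, and 36.3% and 0% with upper-quartile factors. Genes under 1 CPM gave 42.8% and 1.32% with TMM. TMM-scaled CPM moved the overall split to 1797 higher and 1217 lower, and upper-quartile scaling moved it to 4272 higher and 447 lower.

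Large gaps lay nearly all towards lower values in mutants when CPM were taken on library totals. With 1 CPM added to every value, the lower wild-type library exceeded the highest mutant library at least 10-fold for 478 of 17212 identifiers (2.78%). The opposite gap, lowest mutant over highest wild-type library, was found for 11 (0.0639%). At 100-fold the numbers were 99 and 3, and at 2-fold 773 and 101. All genes with a gap of 2-fold or more had passed the filter on low counts. TMM and RLE scaling kept the lean, with 565 and 527 lower against 6 and 7 higher at 10-fold. Under upper-quartile scaling it turned to 23 lower against 63 higher. Each library left out raised the counts, since fewer libraries then had to agree. The lower count became 533 to 709 without a mutant library, 1320 without wild-type replicate 1 and 2180 without the unnumbered wild-type library. The higher count became 43, 31 and 106 without mutant replicates 1, 2 and 3, and 29 and 17 without the respective wild-type libraries. A gap towards lower values needed 2 libraries to be high and the opposite gap 3, so the counts are not on equal terms. The number of abundant genes per library, lower in mutants, also moved with this lean. The part of either in the result was not tested.

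**Figure D3:**
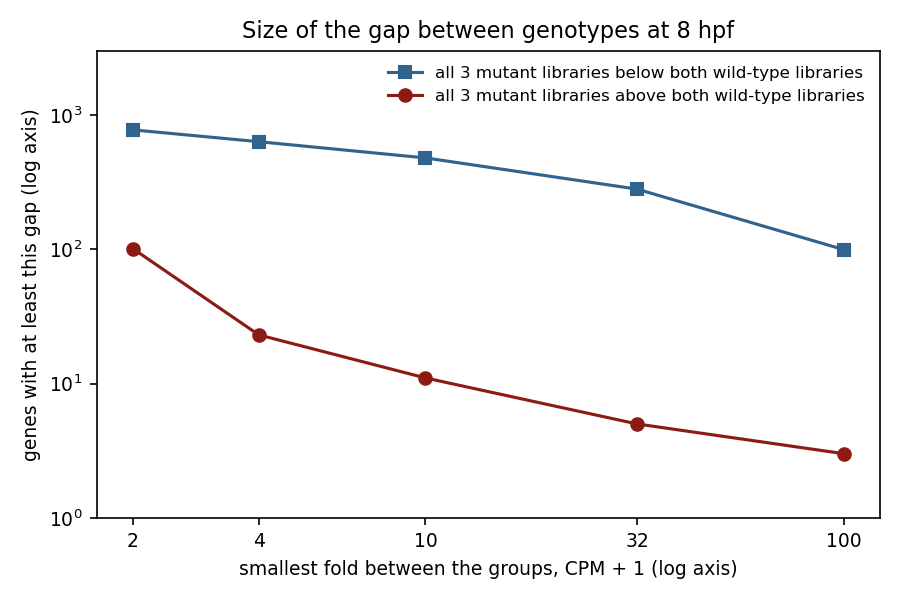
Number of genes (vertical log axis) whose mutant and wild-type libraries were separated by at least the fold on the horizontal log axis, for CPM + 1 on library totals. At 10-fold 478 genes lay below wild type in all 3 mutant libraries and 11 lay above, and under upper-quartile scaling these numbers turned to 23 and 63.

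Of the 782 genes abundant in both wild-type libraries, 305 (39%) were abundant in no mutant library, 251 (32.1%) in 1, 160 (20.5%) in 2 and 66 (8.44%) in all 3. Mutant replicates 1, 2 and 3 held 303, 294 and 172 of them at that level. For 190 of the 782 all 3 mutant libraries were under 3 CPM, which is 1.1% of all identifiers. Without mutant replicate 3, the library with fewest abundant genes, the number was 224. With a single wild-type library it was 754 (the unnumbered one) or 1044 (replicate 1). The reverse pattern was rarer, but it needed 3 abundant libraries where the first needed 2. All 3 mutant libraries shared 93 abundant genes, of which 66 were abundant in both wild-type libraries, 15 in 1 and 12 in neither. Only 2 genes (0.0116% of identifiers), GSOIDG00017106001 among them, were abundant in all mutant libraries and under 3 CPM in both wild-type libraries. Leaving out mutant replicate 3, 1 or 2 gave 2 libraries per group. The first pattern then held for 224, 268 and 280 genes and the reverse for 44, 14 and 10. With 1 wild-type library the reverse pattern held for 13 (the unnumbered one kept) or 5 (replicate 1 kept). Upper-quartile scaling turned these counts to 0 genes under 3 CPM in all mutant libraries and 4 of the reverse pattern.

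The 66 genes abundant in all 5 libraries were chosen for a high level in both genotypes, which leaves out genes nearly absent from any library and limits how far the genotypes can differ. They took 12.1%, 6.85% and 17.8% of counts in mutant replicates 1, 2 and 3, and 10.3% and 12.0% in wild-type replicate 1 and the unnumbered library. Their mutant minus wild-type difference of mean log2 CPM had a median of 0.10, with the middle of the list between -0.48 and 0.79 and extremes of -2.60 and 3.47. The SD of log2 CPM over libraries had a median of 1.00 in mutants and 0.42 in wild type, so most of these differences were within the spread between mutant replicates. Their libraries did not overlap for 12 genes that lay higher (18.2%) and 8 that lay lower (12.1%), against 33.7% and 10.8% of all tested genes. None of the 66 (0) reached an unadjusted p under 0.05 in edgeR, against 30% of all tested genes.

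Among genes averaging 5 CPM or more with no overlap between genotypes, 723 lay higher and 889 lower in mutants, and the 2 with the smallest edgeR p in each direction are described by identifier. Their functions are not known here. Being chosen for no overlap, they had their direction fixed by the choice. None passed edgeR's adjusted threshold with TMM factors and all 5 libraries.

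GSOIDG00017106001 stood at 2081, 2329 and 877 CPM in mutant replicates 1, 2 and 3. It was at 0.255 CPM (4 counts) in wild-type replicate 1 and 0.201 CPM (3 counts) in the unnumbered wild-type library. All mutant libraries were thus high and both wild-type libraries nearly empty, with a gap of 700-fold on CPM + 1. Mutants averaged 1762 ± 777 CPM (SD, n = 3) and wild type 0.228 ± 0.0383 CPM (SD, n = 2). The log2 fold change was 12.03 with an SE of 2.21 (edgeR adjusted p = 0.166). Wild-type libraries of the earlier stages held this transcript. At 4 hpf it was at 168 and 264 CPM in mutants and 207 and 228 CPM in wild type. At 6 hpf it was at 447 and 371 CPM in wild type and at 0.273, 289 and 477 CPM in mutant replicates 1, 2 and 3. A mutant library at 6 hpf was therefore as empty as the wild-type libraries at 8 hpf.

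GSOIDG00007462001 had 628, 116 and 2046 counts in mutant replicates 1, 2 and 3, which is 48.9, 11.2 and 187 CPM, and 0 counts in both wild-type libraries. Pooled over libraries the mutant level was 81.7 CPM, at least 834-fold higher than the 0.0980 CPM that 3 counts over the wild-type group would give. This floor covers counting error only. Mutant replicate 3 held most of the counts, and without it the bound was 327-fold. It was 407-fold without wild-type replicate 1 and 427-fold without the unnumbered wild-type library. The lowest mutant library lay far above both empty wild-type libraries, but the mutant libraries differed among themselves by more than 10-fold (edgeR adjusted p = 0.166). With upper-quartile factors GSOIDG00007462001 passed (edgeR adjusted p = 0.0455), a setting that called 2521 of 8704 genes.

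GSOIDG00004093001 was at 1296 CPM in wild-type replicate 1 and 3136 CPM in the unnumbered wild-type library, and at 1.95, 3.09 and 0.912 CPM in mutant replicates 1, 2 and 3. Both wild-type libraries were high and all mutant libraries low. Mutants averaged 1.98 ± 1.09 CPM (SD, n = 3) and wild type 2216 ± 1301 CPM (SD, n = 2). The log2 fold change was -11.20 with an SE of 2.02 (edgeR adjusted p = 0.166). At 6 hpf the order was mixed, with 0.205, 816 and 42.7 CPM in mutants and 0.656 and 0.142 CPM in wild type.

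GSOIDG00017891001 was at 512 CPM in wild-type replicate 1, 2872 CPM in the unnumbered wild-type library, and 0.389, 1.64 and 0.547 CPM in mutant replicates 1, 2 and 3. Both wild-type libraries were high and all mutant libraries were low. Mutants averaged 0.860 ± 0.682 CPM (SD, n = 3) and wild type 1692 ± 1669 CPM (SD, n = 2). The log2 fold change was -12.23 with an SE of 2.14 (edgeR adjusted p = 0.166). Without the unnumbered wild-type library the log2 fold change of GSOIDG00017891001 was -9.09. At 6 hpf it was detected above 1 CPM in 1 library, wild-type replicate 2, at 81.4 CPM. DESeq2 passed all 4 genes, with adjusted p-values of 2.05e-16 for GSOIDG00017106001, 2.26e-05 for GSOIDG00007462001, 1.48e-16 for GSOIDG00004093001 and 5.15e-15 for GSOIDG00017891001. It called 3806 of the 8218 genes to which it gave an adjusted p. As the 4 were chosen as extremes of the same libraries, their passing adds no support.

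**Figure D4:**
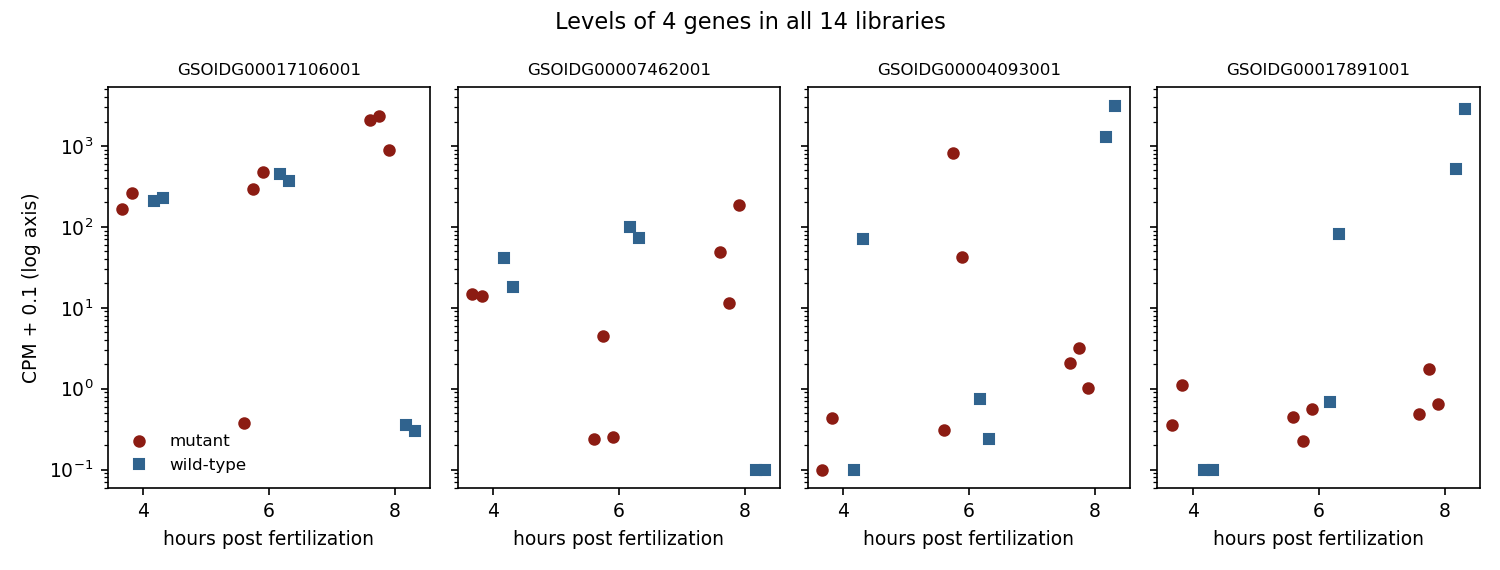
CPM + 0.1 (vertical log axis) of the 4 genes in every library at 4, 6 and 8 hpf (horizontal axis), mutant libraries as circles and wild-type libraries as squares. At 8 hpf the genotypes do not overlap for any of the 4, while at 6 hpf libraries of 1 genotype differ as widely, as for GSOIDG00017106001 at 0.273 and 477 CPM in mutants.

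Genes chosen from the libraries at 4 and 6 hpf alone were then read at 8 hpf, where all identifiers had a median mutant minus wild-type difference of 0.21 in mean log2(CPM + 1), with 35.6% higher and 6.15% lower without overlap. Of 162 genes abundant in all 9 earlier libraries, 101, 110 and 66 were abundant in mutant replicates 1, 2 and 3. In wild-type replicate 1 there were 133 and in the unnumbered library 114. Their median level was 271, 347 and 7.53 CPM in mutants and 420 and 378 CPM in wild type, so mutant replicate 3 stood apart. The median difference of these 162 was -1.12, with 15 (9.26%) higher and 23 (14.2%) lower without overlap and 0 called by edgeR. Without mutant replicate 3 the median was -0.23, without wild-type replicate 1 it was -0.73, and under upper-quartile scaling it was 2.34.

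Genes abundant in both wild-type libraries at an earlier stage gave the same order of libraries. Of 1308 such genes from 4 hpf, 24.5%, 30.8% and 11.4% were abundant in mutant replicates 1, 2 and 3 at 8 hpf, against 41.1% and 33.6% in wild type. Of 638 such genes from 6 hpf, the shares were 33.2%, 41.4% and 18.5% against 55.2% and 43.6%. No share overlapped between genotypes, as was also the case for all identifiers, at 3.18% to 8.55% against 13.9% and 10.4%. The median differences were -0.56 and -1.04. They were 0.35 and 0.30 without wild-type replicate 1, -0.03 and -0.26 without mutant replicate 3, and 1.34 and 1.65 under upper-quartile scaling. In the 4 hpf list 240 genes (18.3%) lay higher and 171 (13.1%) lower without overlap. In the 6 hpf list 104 (16.3%) and 100 (15.7%) did. All identifiers gave 35.6% and 6.15%, but their higher genes were mostly genes with few counts, while the lists were chosen for abundance. Tested genes averaging 10 to 100 CPM gave 12.4% and 15.7%, and those from 100 to 1000 CPM 13.1% and 19.2%. The lower shares of the lists did not exceed these, so no lean of the lists is read from the comparison with all identifiers. In either list 0 genes were called.

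**Figure D5:**
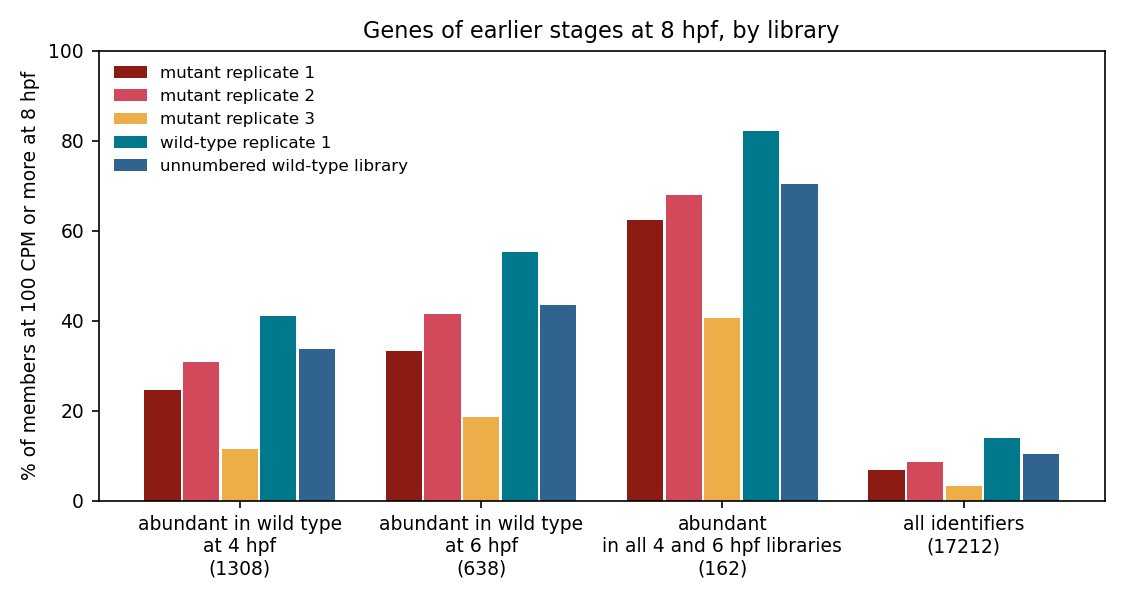
Share of genes at 100 CPM or more at 8 hpf (vertical axis, percent) in each library, for 3 sets of genes chosen from earlier stages and for all identifiers, with the number of genes in brackets. Mutant replicate 3 is lowest and wild-type replicate 1 highest in every set, as for the 162 genes of the third set at 40.7% and 82.1%.

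Genes with a 10-fold gap between genotypes at 6 hpf were read the same way. Of 129 genes at least 10-fold higher in every mutant library at 6 hpf, 0 were 10-fold higher and 10 were 10-fold lower at 8 hpf. Of 100 genes at least 10-fold lower in every mutant library at 6 hpf, 2 were 10-fold higher and 7 were 10-fold lower at 8 hpf. Both lists had more 10-fold lower genes at 8 hpf (7.75% and 7%) than all identifiers had (2.78%), as did the lists of abundant genes (4.32% to 6.58%). All 478 genes with this gap had passed the filter on low counts, as had 8704 of 17212 identifiers. All 162 genes abundant in every earlier library passed it, as did 93 of 129 and 79 of 100 in the lists of 6 hpf. These shares are therefore not on equal terms. The share 10-fold higher at 8 hpf was 0% and 2% in these lists and 0.0639% of all identifiers, a background at which a list of this size holds too few such genes for a count of 0 to be read. The median differences at 8 hpf were -0.27 and 0.23. Read in the other direction, the 478 genes 10-fold lower at 8 hpf had 54 lower (11.3%) and 30 higher (6.28%) without overlap at 6 hpf, where all identifiers gave 16.4% and 3.38%. At 4 hpf 94 (19.7%) were lower and 54 (11.3%) higher, against 12% and 9.1%. Of the 478, 49.8% were abundant in some mutant library at 6 hpf, and 38.5% in some wild-type library. All identifiers gave 25.1% and 17.4%, so they leaned the same way. The mutant share is also taken over 3 libraries and the wild-type share over 2.

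A test of the difference between stages called no gene. With edgeR over all 14 libraries, 0 of 12850 genes (0%) had a genotype effect at 8 hpf that differed from the one at 4 hpf, and 0 (0%) from the one at 6 hpf. The smallest adjusted p-values were 0.222 and 0.148, and 1964 and 2996 genes had an unadjusted p under 0.05. DESeq2 called 743 of 7532 and 1538 of 6274 genes to which it gave an adjusted p, and limma-voom 0 and 53 of 12850. For GSOIDG00004093001 the genotype effect at 8 hpf minus that at 6 hpf was -20.43 on the log2 scale, with an SE of 3.38 (edgeR adjusted p = 0.148). Against 4 hpf it was only -3.74, with an SE of 3.81 (edgeR adjusted p = 0.749). For GSOIDG00017891001 it was -16.75 against 4 hpf (edgeR adjusted p = 0.222) and -5.20 against 6 hpf (edgeR adjusted p = 0.341). No SE was available for these. For GSOIDG00017106001 the effect at 8 hpf minus that at 4 hpf was 11.87 with an SE of 3.31 (edgeR adjusted p = 0.230). Against 6 hpf this difference was 12.95 with an SE of 3.16 (edgeR adjusted p = 0.148). These genes were chosen by their 8 hpf values, which the differences reuse.

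The run of 43 consecutive identifiers chosen for low counts in mutants at 4 and 6 hpf also stood lower at 8 hpf, with 14, 17 and 11 of the 43 having a count in mutant replicates 1, 2 and 3, against 39 in each wild-type library. Its summed level was 6.07, 111 and 10.9 CPM in mutants and 2881 and 5097 CPM in wild type, of which 1 gene gave nearly all of the 111 CPM. Without the highest gene of each library the sums were 4.20, 4.54 and 6.30 CPM in mutants and 1555 and 3355 CPM in wild type. In the run 32 of 43 genes (74.4%) were lower and 0 higher without overlap, against 6.15% and 35.6% of all identifiers, and 7 (16.3%) had a 10-fold gap, against 2.78%. Only 11 of the 43 passed the filter on low counts. The median member was at 0.383 and 0.268 CPM in the wild-type libraries and 0 in each mutant library, so many of the 32 rest on few counts.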

How the data were processed

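The 8 hpf table that the authors deposited holds estimated counts, with genes in rows and libraries in columns. The tools named are kallisto 0.46.0 and DESeq2, per the submitters' processing notes. Index, annotation and filters were not given in the sources used here. Since kallisto splits ambiguous reads by estimate, values of near-identical paralogs are uncertain. The deposited estimated counts were rounded to whole numbers (7.69% to 10.8% of values per library lay over 0.01 from one). Per-library totals are in the report, and intervals and floors cover counting error only.

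Samples were grouped by title. The unnumbered wild-type column was assigned to its group from its name. Each pair of 8 hpf libraries differed by a chi-square per degree of freedom of at least 1408, so none was a repeat.

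The 5 libraries were fitted with edgeR 4.0.16 (R 4.3.3), with filterByExpr, TMM and the two-sided quasi-likelihood F test, and p-values were adjusted by Benjamini-Hochberg across tested genes, with a threshold of 0.05. The stage comparison used 6 group means over 14 libraries. SEs come from the fitted model and its quasi-likelihood dispersion. Other settings tried were DESeq2 1.42.0 on all identifiers, limma-voom (limma 3.58.1), RLE and upper-quartile factors, other low-count filters, a joint fit of 14 libraries, a block for column numbers and each library left out. List medians used mean log2(CPM + 1) of all members. Named genes were the 2 per direction with the smallest edgeR p among those with a mean of at least 5 CPM and no overlap. The run of identifiers was the stretch with the highest summed Poisson score for being lower in mutants, from the 4 and 6 hpf libraries alone. The edgeR step was tested on simulated data with known changes. Its pass mark was set at a spread far below that of these libraries, so it does not show the power of the test here. Genes, lists and tests were chosen with earlier results of these data known. Python 3.11.15 was used for the remaining steps.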

Additional observations from a re-analysis of the deposited data

Results flagged for a closer look

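GSOIDG00007462001 was above wild type in mutants at 8 hpf and below it earlier. At 8 hpf all 3 mutant libraries were above both wild-type libraries, which was fixed by the rule that chose the gene. At 4 hpf both mutant libraries, at 14.5 and 13.8 CPM, were below both wild-type libraries, at 40.7 and 18.2 CPM. At 6 hpf the mutant libraries, at 0.136, 4.33 and 0.153 CPM, were below the wild-type libraries, at 99.7 and 72.4 CPM. Of all identifiers, 12% at 4 hpf and 16.4% at 6 hpf were lower in mutants without overlap. The log2 fold change was -0.81 with an SE of 2.26 at 4 hpf and did not pass. At 6 hpf it was -6.41 with an SE of 3.73 (edgeR adjusted p = 0.661). On the log2 scale, the genotype effect at 8 hpf exceeded that at 4 hpf by 13.43 (edgeR adjusted p = 0.237). It exceeded that at 6 hpf by 18.45 (edgeR adjusted p = 0.148), and neither difference passed. Both differences reuse the 8 hpf values by which the gene was chosen, so they are no separate evidence of a change between stages. Both sizes depend on edgeR's prior count, because the wild-type libraries at 8 hpf had 0 counts.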

How the results depend on the processing

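The number of genes called at 8 hpf, 0 with edgeR and TMM, stayed 0 with limma-voom, without the low-count filter, at a mean of at least 5 CPM and in 1 fit of all 14 libraries. It was 26 with RLE factors, 2521 with upper-quartile factors, 3806 with DESeq2 and 0 to 2466 with each library left out. A replicate block on the numbers of the columns gave 19 calls. The numbers give only 2 pairs, deviations of same-numbered libraries correlated at 0.01 and 0.03 across genes, and 1 number has no title, so the pairing is not established. Genes higher without overlap, 2935 of 8704 (33.7%), became 1797 (20.6%) with TMM scaling. They became 6133 of 16823 (36.5%) without the filter and 946 of 6497 (14.6%) at 5 CPM. With each library left out their number ran from 2130 of 7071 (30.1%) to 6859 of 11012 (62.3%). Genes lower without overlap, 938 of 8704 (10.8%), became 447 (5.14%) with upper-quartile scaling. With each library left out their number ran from 1057 of 7393 (14.3%) to 3482 of 11479 (30.3%). The alternatives for gaps, for genes at 100 CPM in 1 genotype and under 3 CPM in the other, and for the bound were chosen after the data were seen. For 10-fold gaps, the 11 higher genes became 6 with TMM, 7 with RLE, 63 with upper-quartile scaling and 17 to 106 with each library left out, and the 478 lower genes 23 with upper-quartile scaling and 533 to 2180. The 2 genes gained in mutants became 4 with upper-quartile scaling and 5 to 44, and the 190 lost ones 0 with upper-quartile scaling and 224 to 1044. The bound for GSOIDG00007462001, 834-fold, ran from 327- to 1146-fold with each library left out. The differences between stages, 0 calls each, became 743 (4 hpf) and 1538 (6 hpf) with DESeq2 and 53 (6 hpf) with limma-voom, and stayed 0 with each library left out. The mutant minus wild-type difference in genes at 100 counts kept its sign, at -2809 to -1072 with each library left out. That in the share of the 10 most abundant genes, 0.740 percentage points, ran from -0.660 to 1.92.

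Medians of 4 of the 6 gene lists changed sign with upper-quartile factors, and those of the list 10-fold lower at 6 hpf and of the run did not. With these factors they were 1.34 for genes abundant in wild type at 4 hpf, 1.65 for those of 6 hpf, 2.34 for those of all earlier libraries, 1.18 for genes 10-fold higher at 6 hpf, 1.41 for those 10-fold lower and -0.11 for the run. The run gave -0.58 in the main analysis and -0.80 with RLE factors. Restricted to tested genes, the list 10-fold higher at 6 hpf gave -1.14, the one 10-fold lower -0.03 and the run -6.09. At a mean of at least 5 CPM the 4 hpf list gave -1.78, the 10-fold higher list -1.84, the 10-fold lower list -1.72 and the run -4.25. The causes of these changes were not tested. With each library left out the medians ran from -1.15 to 0.35 (4 hpf list), -1.84 to 0.30 (6 hpf list), -1.58 to -0.23 (all earlier libraries), -0.27 to 0.39 (10-fold higher), 0.15 to 0.51 (10-fold lower) and -0.58 to -0.33 (run).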

Other observations

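A minority of genes 10-fold lower in mutants at 8 hpf had a neighbour of the same kind in the identifier order, above their share of identifiers. Outside the run of 43, 62 of 471 such genes (13.2%) had one, and 6.79% of the places next to them held one, while such genes made up 2.74% of all identifiers. Genes abundant in both wild-type libraries and nearly absent from all mutant libraries numbered 187 outside the run. Of these, 8 (4.28%) had such a neighbour, and they filled 2.14% of the places next to one another and 1.09% of all places. Other sets chosen by abundance did likewise. Outside the run, genes abundant in both wild-type libraries filled 10.8% of the places next to one another and 4.53% of all places. Genes abundant in wild-type replicate 1 and nearly absent from the unnumbered wild-type library filled 10.6% and 7.91%, and genes with the opposite pattern 8.62% and 3.91%. Many genes of Oikopleura dioica are known to be transcribed in operons, but whether the identifier order follows the chromosome was not tested here.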
